A study of Mus musculus with 6 samples.

Results

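The genes described here are the matrix metalloproteinases (Mmp), the ADAMTS proteases (Adamts) and the tissue inhibitors of metalloproteinases (Timp), taken as every row of the deposited gene table whose name begins with 1 of these stems followed by a digit. This rule found 46 genes among 21959, of which 23 were Mmp, 19 were Adamts and 4 were Timp. ADAMTS-like genes (Adamtsl) and membrane-bound ADAM proteases did not meet the rule and are treated as related genes further on.

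Matrix metalloproteinases are zinc enzymes, made as inactive precursors, that cut collagens, laminins, proteoglycans and many other proteins outside the cell. ADAMTS proteases are secreted relatives with thrombospondin repeats, and include enzymes that trim newly made fibrillar procollagen and enzymes that cut the large proteoglycans versican and aggrecan. TIMP proteins block the active sites of matrix metalloproteinases, and TIMP3 also inhibits ADAMTS enzymes. In skin the balance between proteases and inhibitors is studied in wound repair, in the remodelling of dermis and dermal fat, and around the hair follicle as it passes from rest to growth.

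RNA-seq was performed on whole dorsal skin of male C57BL/6 mice that were shaved at 7 weeks of age, with their follicles in telogen, the resting stage of the hair cycle. The vehicle group received dipropylene glycol in water on the skin each day for 7 days, and the rebamipide group received 3% rebamipide, a gastric mucosal drug, on the same schedule. Each group held 3 libraries, called vehicle 1 to 3 and rebamipide 1 to 3, and no genetic change was introduced in either group. The skin came from 3 mice a group, and the p-values below measure the spread between these libraries.

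The libraries held 32709801 to 39915276 counted reads over genes. Several stood apart from their group or from their tissue label. Their 10 leading genes took 7.20 to 10.6% of all reads with vehicle, and 20.2 to 30.4% with rebamipide. The keratinocyte genes Krt14 and Krt15 had 0 reads in rebamipide 3, and 5 basal keratinocyte markers summed to 131 to 1056 CPM (reads scaled to library size by edgeR's TMM factors) in the rebamipide group against 2305 to 3643 in vehicle. Summed markers of brown adipocytes lay at 4504 to 12210 CPM in rebamipide and at 166 to 306 in vehicle, with Ucp1 at 0 reads in all vehicle libraries. Of these 5 markers Elovl3 was the exception, with 6332 to 11150 reads in vehicle and 873 to 2500 in rebamipide. The 6 fibroblast markers summed to 12000, 13730 and 17740 CPM in vehicle 1 to 3, and to 15110, 3503 and 1850 in rebamipide 1 to 3, so that rebamipide 1 lay at the vehicle level. In tissue RNA of this kind, fewer cells of a type and less RNA per cell cannot be told apart.

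Promoter sequences are shown first, because they set the Mmp cluster of chromosome 9 apart from the other members whose promoters were at hand. The cluster's 10 Mmp genes (Mmp1a, Mmp1b, Mmp3, Mmp7, Mmp8, Mmp10, Mmp12, Mmp13, Mmp20 and Mmp27) filled an interval of chromosome 9 from 7272514 to 7699586 in the deposited GRCm39 table, which held 10 genes in all, every one an Mmp. RefSeq promoters on GRCm38.p6, each 300 bases with 250 before and 50 after the annotated start, were at hand for 32 of the 46 members, the whole cluster included. Those of Mmp2, Mmp9, Mmp19 and Adamts5 were among the promoters not at hand, so the motif counts below do not cover them. A set of 4 motifs was searched on both strands, none of them contained in another: TGACTCA (the AP-1 element), TATAAA (the TATA box), GGGCGG (the GC box) and CCAAT. The AP-1 element occurred in 7 of the 10 cluster genes and in 0 of the 22 other members, beside 5.2% of 32851 promoters in the reference. TATAAA occurred in 9 of 10 cluster genes and 2 of 22 others, beside 13.6% of all promoters, and GGGCGG in 0 of 10 and 18 of 22, beside 35.7%. CCAAT occurred in 3 of 10 and 6 of 22, beside 37.4%. A total of 7 member genes, all from the cluster, held both the AP-1 element and the TATA box, with 12 to 41 bases between them, as did 0.941% of all promoters.

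The windows below run from 100 bases before the annotated start to 20 bases from it on, 5′ to 3′ on the gene's own strand, with every match to a motif on either strand in capitals. The first 4 belong to the cluster and lie at chr9:7445722-7445841 (Mmp3), chr9:7347274-7347393 (Mmp12, 1 of its 2 listed starts), chr9:7272414-7272533 (Mmp13) and chr9:7502242-7502361 (Mmp10), all on the plus strand.
Mmp3: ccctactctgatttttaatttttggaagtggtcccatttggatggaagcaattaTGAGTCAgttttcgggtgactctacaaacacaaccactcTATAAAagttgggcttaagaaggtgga
Mmp12: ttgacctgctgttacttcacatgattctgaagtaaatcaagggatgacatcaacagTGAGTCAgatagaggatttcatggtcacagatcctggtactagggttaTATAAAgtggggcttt
Mmp13: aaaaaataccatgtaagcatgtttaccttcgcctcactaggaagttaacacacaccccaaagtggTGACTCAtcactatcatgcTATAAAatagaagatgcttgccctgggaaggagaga
Mmp10: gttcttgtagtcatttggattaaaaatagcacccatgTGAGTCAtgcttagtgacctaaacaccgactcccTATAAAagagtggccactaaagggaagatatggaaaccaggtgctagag
The next 4 belong to the members on which the levels below turn. They lie at chr6:115252186-115252305 on the minus strand (Timp4), chr8:95352196-95352315 on the plus strand (Mmp15), chr14:54431498-54431617 on the plus strand (Mmp14) and chr11:118355392-118355511 on the minus strand (Timp2).
Timp4: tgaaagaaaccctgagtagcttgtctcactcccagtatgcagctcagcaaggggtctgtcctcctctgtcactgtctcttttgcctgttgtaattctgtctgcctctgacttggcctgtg
Mmp15: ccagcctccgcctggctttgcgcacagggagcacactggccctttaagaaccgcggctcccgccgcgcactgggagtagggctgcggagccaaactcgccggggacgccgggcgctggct
Mmp14: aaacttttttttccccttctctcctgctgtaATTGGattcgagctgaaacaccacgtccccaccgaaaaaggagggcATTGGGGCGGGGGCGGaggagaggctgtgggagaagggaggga
Timp2: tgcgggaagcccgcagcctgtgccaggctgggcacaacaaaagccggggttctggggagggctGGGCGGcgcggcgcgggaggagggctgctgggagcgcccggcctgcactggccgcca
In these windows Mmp14 held GC boxes and CCAAT boxes on the reverse strand, where 1 match of each kind shares a base, Timp2 held 1 GC box, and Timp4 and Mmp15 held none of the 4 motifs. GC content of the whole promoters was 37.7 to 52.0% in the cluster genes and 53.3 to 80.0% in the other members searched, with a median of 52.7% over all promoters.

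Few members passed the test, and those that did lay on either side. By edgeR's quasi-likelihood test over 14875 genes, with p-values adjusted by the Benjamini-Hochberg method, 4 members were higher in rebamipide-treated skin (Timp4, Mmp15, Mmp19 and Adamts9) and 2 were lower (Adamts5 and Adamts12). Of all genes tested, 14.1% were called higher and 6.51% lower, against 4 and 2 of the 36 members tested, so the share of members called was no greater than that of genes in general in either direction. The other 10 members had too few reads to be tested: Mmp1a and Mmp7 had 0 reads in every library, and Mmp1b, Mmp8, Mmp10, Mmp20, Mmp21, Mmp24, Adamts13 and Adamts19 had at most 55 reads in any library. The fitted log2 fold change, rebamipide over vehicle, was above 0 for 9 of the 36 and below 0 for 27, with a median of -0.56 beside -0.175 over all genes. By family the median was -0.67 over 15 Mmp, -0.45 over 17 Adamts and -0.66 over 4 Timp genes. Scaling by total counts alone in place of TMM moved the median of all genes to -0.78, and with that scaling 0 members were called higher and 7 lower, as were 1258 and 3752 of all genes (8.46% and 25.2%, against 2093 and 968 genes with TMM). With limma on log2(FPKM + 1), 1 member was called higher and 10 lower, beside 9.42% and 32.3% of all genes.

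**Figure D1:**
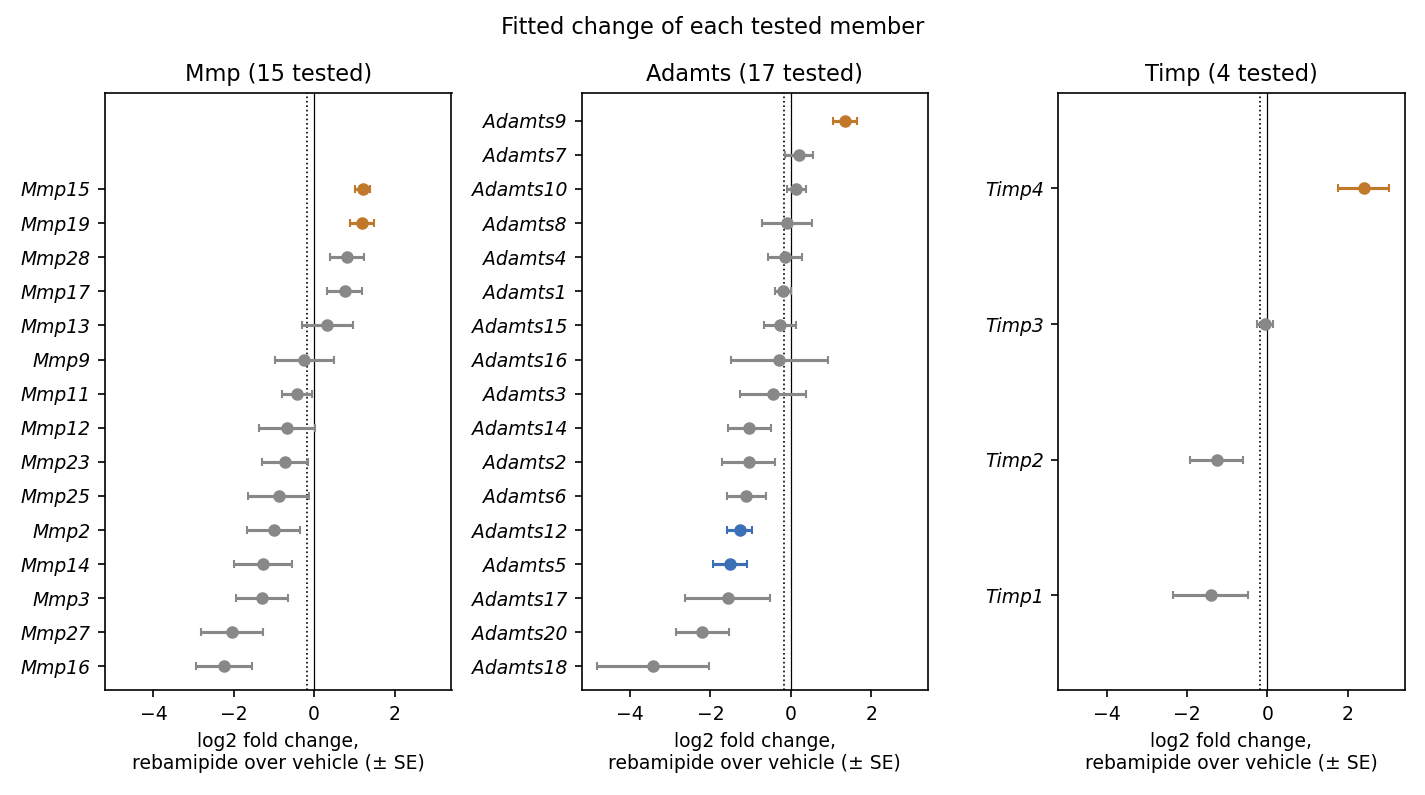
Fitted log2 fold change (rebamipide over vehicle, x axis, ± SE) of the 36 tested members in 3 panels, with orange points called higher, blue points called lower and grey points not called at adjusted p under 0.05, and with the median of all genes as a dotted line. Timp4 lies farthest right at 2.39, and Adamts18, not called, lies farthest left at -3.43.

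The group levels did not overlap for 12 tested members. Of these, 5 were higher in every rebamipide library (the 4 called and Mmp28) and 7 were lower in each (Mmp16, Mmp27, Adamts5, Adamts6, Adamts12, Adamts14 and Adamts20), where 24.5% and 24.0% of all genes tested showed such a separation. With the looser limits used by the study, an unadjusted p under 0.05 and a log2 fold change beyond 1 in size, 4 members were higher and 6 lower, beside 14.3% and 14.5% of all genes.

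Among the inhibitors the level of Timp4 rose, the value for Timp3 depended on the scaling, and those of Timp1 and Timp2 spread widely. Timp4 (ENSMUSG00000030317, chromosome 6, 115218853 to 115229166, minus strand, GRCm39) is the family member with the most restricted tissue distribution, best known from the heart. It lay at 11.6, 16.4 and 48.0 CPM in vehicle 1 to 3 and at 76.6, 136.5 and 186 CPM in rebamipide 1 to 3. Every rebamipide library exceeded every vehicle library, with vehicle 3 the highest of its group. The mean went from 25.3 ± 19.8 to 133 ± 54.8 CPM (SD, n = 3), a log2 fold change of 2.39 (SE 0.63, edgeR adjusted p = 0.0449). It was 3.25 without vehicle 3 (edgeR adjusted p = 0.0233) and 1.75 with total counts alone (edgeR adjusted p = 0.0603). Timp4 lies wholly inside Syn2, which is transcribed from the other strand and had 46 to 121 reads in vehicle and 207 to 348 in rebamipide. Whether the counting used strand is not given in the sources used here, so reads of the pair may be mixed. As for depth, Timp4 had 579 to 2245 reads in vehicle and 2325 to 4876 in rebamipide.

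Timp3, which is bound to the matrix and also inhibits ADAMTS enzymes, lay at 223, 211 and 190 CPM in vehicle and at 172, 191 and 237 CPM in rebamipide. The groups overlapped, with means of 208 ± 16.7 and 199.8 ± 33.1 CPM (log2 fold change -0.06, SE 0.21, edgeR adjusted p = 0.853). The sign of this value turned when rebamipide 1 was left out. With total counts alone Timp3 was called lower (-0.69, edgeR adjusted p = 0.0395), and likewise with limma on log2(FPKM + 1) (-0.66, adjusted p = 0.0227). In FPKM, which follows total counts, its groups did not overlap, at 34.9, 32.0 and 28.2 in vehicle and 19.6, 17.5 and 21.9 in rebamipide. Timp3 is likewise contained in an oppositely transcribed gene, Syn3, which had at most 37 reads.

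Timp2, which inhibits MMPs and also takes part in activating the Mmp2 precursor on the cell surface together with Mmp14, was the most abundant member, with a mean of 123 fragments per kilobase of transcript, scaled to library size (FPKM). Its CPM was 345, 637 and 817 in vehicle and 489, 157 and 104 in rebamipide. Rebamipide 1 sat inside the vehicle range, while rebamipide 2 and 3 were below it, and the difference did not pass the test (log2 fold change -1.27, SE 0.65, edgeR adjusted p = 0.197). Timp1, a secreted broad MMP inhibitor, had the same shape at a far lower level, with 4.23, 5.50 and 9.37 CPM in vehicle and 5.53, 1.25 and 0.382 in rebamipide (log2 fold change -1.41, SE 0.93, edgeR adjusted p = 0.293). Its count in rebamipide 3 was 10 reads, and Syn1, the gene around it on the other strand, had 14 there.

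The makeup of the inhibitor pool therefore differed between the groups. In summed FPKM of the 4 genes, Timp4 made up 1.60, 1.40 and 3.23% in vehicle 1 to 3 and 7.84, 26.3 and 36.0% in rebamipide 1 to 3, with no overlap. Timp2 made up 72.2 to 83.3% in vehicle, 75.7% in rebamipide 1, and 45.6 and 30.4% in rebamipide 2 and 3. Timp3 went from 9.25 to 22.3% in vehicle to 12.8, 26.6 and 33.1% in rebamipide. In rebamipide 3 the levels of Timp2, Timp3 and Timp4 were thus close to each other, and Timp4 exceeded Timp2 by a ratio of 1.19, whereas this ratio lay between 0.0170 and 0.0388 in vehicle.

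**Figure D2:**
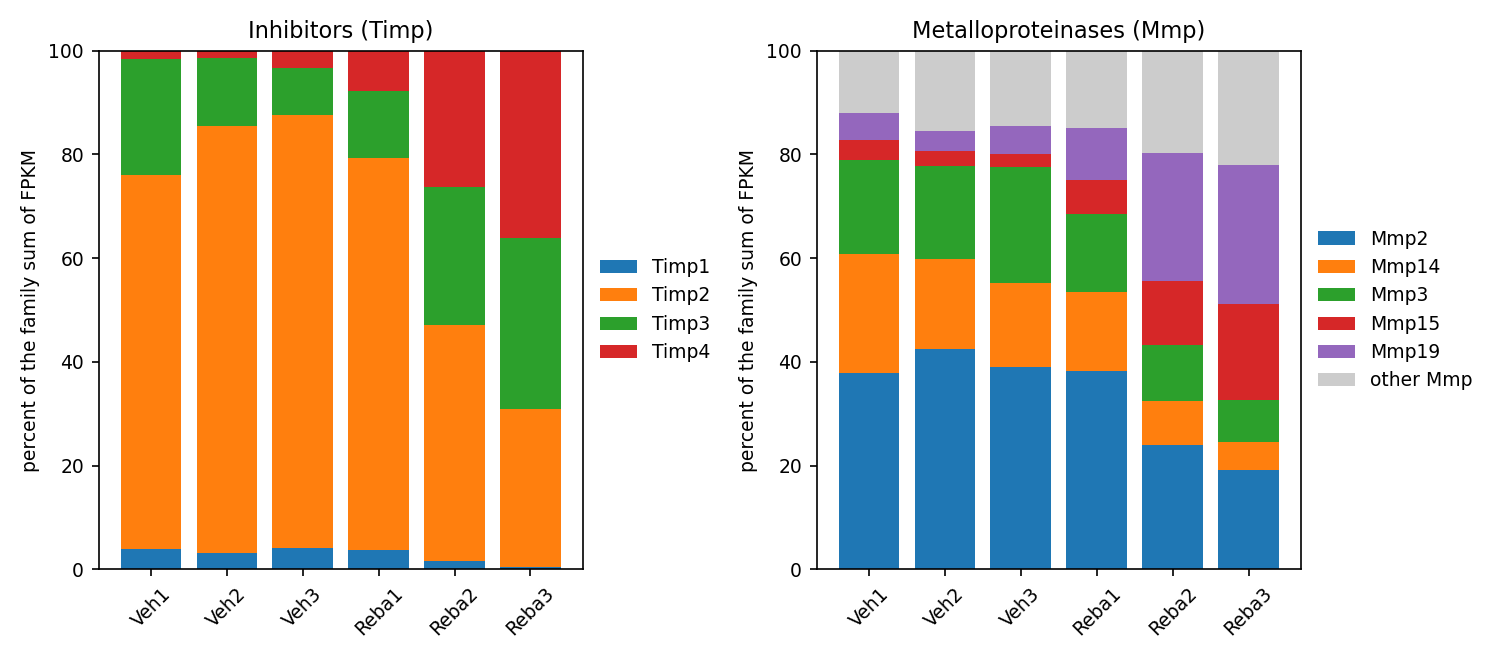
Share of each gene in the summed FPKM of its family (y axis, percent) in each of the 6 libraries (x axis), for the 4 Timp genes on the left and for the 23 Mmp genes on the right, where 5 are drawn in colour and the remaining Mmp in grey. Timp4 grows from 1.40 to 3.23% in vehicle to 7.84 to 36.0% in rebamipide, and rebamipide 1 resembles the vehicle libraries in its Timp2 and Mmp2 shares.

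Among the membrane-type MMPs, which are anchored at the cell surface, Mmp15 rose and the more abundant Mmp14 was not called by edgeR with all libraries. Mmp15 (MT2-MMP, ENSMUSG00000031790, chromosome 8, 96078896 to 96101708, plus strand) lay at 19.7, 22.1 and 25.9 CPM in vehicle and at 52.7, 47.3 and 56.1 CPM in rebamipide. These groups were tight and far from overlapping, with means of 22.6 ± 3.13 and 52.0 ± 4.47 CPM (log2 fold change 1.20, SE 0.19, edgeR adjusted p = 0.0129). With total counts alone the change was 0.59 (edgeR adjusted p = 0.0609), and in FPKM the groups lay closer, with vehicle 3 at 5.81 and rebamipide 2 at 6.54. Mmp14 (MT1-MMP), a cell-surface collagenase and activator of the Mmp2 precursor, lay at 134, 152 and 178 CPM in vehicle and at 137, 35.5 and 18.2 CPM in rebamipide. Here rebamipide 1 was inside the vehicle range and the other two were well below, and the difference did not pass the test (log2 fold change -1.28, SE 0.72, edgeR adjusted p = 0.229). In FPKM the Mmp14 groups did not overlap, at 28.7, 31.35 and 36.05 in vehicle and 21.4, 4.45 and 2.30 in rebamipide. Limma on log2(FPKM + 1) called Mmp14 lower (-2.155, adjusted p = 0.0475). The ratio of Mmp15 to Mmp14 in FPKM was nearly fixed in vehicle, at 0.161 to 0.163, and was 0.424, 1.47 and 3.41 in rebamipide 1, 2 and 3.

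The other membrane-type genes were scarce. Mmp16 (MT3-MMP) had 95, 49 and 74 reads in vehicle and 12, 12 and 2 in rebamipide, and was lower in each rebamipide library without being called by edgeR (log2 fold change -2.24, SE 0.69, edgeR adjusted p = 0.0656). DESeq2 called it (adjusted p = 0.00759), as did edgeR with total counts alone (0.0337) and limma on log2(FPKM + 1) (0.0275). Mmp17 and Mmp25, both tethered by a lipid anchor, had 28 to 230 reads and overlapped between the groups. Mmp24 had at most 4 reads in any library.

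Mmp19 rose, the only secreted MMP called by edgeR with all libraries. Mmp19 (ENSMUSG00000025355, chromosome 10, 128626779 to 128636693, plus strand) is a secreted MMP outside the classical subgroups that cuts basement membrane proteins. It lay at 18.0, 19.98 and 35.8 CPM in vehicle and at 52.8, 61.9 and 53.1 CPM in rebamipide. All rebamipide libraries were higher, again with vehicle 3 the highest of its group (24.6 ± 9.74 against 55.9 ± 5.16 CPM, log2 fold change 1.19, SE 0.30, edgeR adjusted p = 0.0418). With total counts alone the change was 0.57 (edgeR adjusted p = 0.151), and in FPKM vehicle 3 at 12.2 lay above rebamipide 3 at 11.3. It shares 789 bases with Tmem198b on the other strand, a gene whose reads went from 193 to 316 in vehicle to 127 to 176 in rebamipide. Mmp28 (epilysin), an MMP made by keratinocytes among other cells, was at 5.27, 13.3 and 15.7 CPM in vehicle and 17.0, 19.6 and 24.0 in rebamipide. The groups stood just apart, yet the difference was not called (log2 fold change 0.82, SE 0.43, edgeR adjusted p = 0.204). In FPKM the groups overlapped, and with total counts alone the change was 0.20.

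The gelatinases Mmp2 and Mmp9, which cut denatured collagen and basement membrane collagen, were not called. Mmp2 was the most abundant protease, with a mean of 47.7 FPKM, and lay at 125, 210 and 245 CPM in vehicle and 194, 57.4 and 36.1 CPM in rebamipide (log2 fold change -1.01, SE 0.66, edgeR adjusted p = 0.286). Mmp9 had 124 to 790 reads, and its groups overlapped. The stromelysins have broad substrates. The best measured of them, Mmp3, lay at 31.9, 47.7 and 75.2 CPM in vehicle and 40.8, 13.7 and 8.17 CPM in rebamipide (log2 fold change -1.30, SE 0.65, edgeR adjusted p = 0.184).

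The chromosome 9 cluster, despite its shared promoter letters, was uneven in level. Only Mmp3, Mmp12, Mmp13 and Mmp27 of its 10 genes had enough reads for a test, and edgeR with all libraries called 0 of the 4, beside 14.1% higher and 6.51% lower of all genes. DESeq2 called Mmp27 lower (-2.07, adjusted p = 0.0242), and limma on log2(FPKM + 1) called Mmp3 and Mmp27 lower. At an unadjusted p under 0.05, edgeR had 1 of the 4 (Mmp27), beside 39.7% of all genes. Mean FPKM was 22.7 for Mmp3, 2.21 for Mmp27, 1.51 for the macrophage elastase Mmp12 and 0.325 for the collagenase Mmp13. Mmp27, a little-studied stromelysin relative, had 191, 329 and 459 reads in vehicle and 93, 38 and 10 in rebamipide, lower in every rebamipide library but not called (log2 fold change -2.04, SE 0.77, edgeR adjusted p = 0.104). The tooth enamel protease Mmp20 had 26 reads in both vehicle 1 and vehicle 2 and 0 in the other 4 libraries. The AP-1 element stood in promoters of both the most abundant gene of the cluster and of Mmp10, which had at most 4 reads.

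The ADAMTS proteoglycanases, which cut versican and aggrecan, held 1 gene that rose and 1 that fell among 7 (14.3% each way, beside 14.1% and 6.51% of all genes). Adamts9 (ENSMUSG00000030022, chromosome 6, 92749680 to 92920473, minus strand) lay at 25.1, 21.3 and 23.4 CPM in vehicle and at 36.7, 69.1 and 72.7 CPM in rebamipide. Its vehicle libraries were tight and rebamipide 1 lay between them and the other rebamipide libraries (23.3 ± 1.88 against 59.5 ± 19.9 CPM, log2 fold change 1.35, SE 0.30, edgeR adjusted p = 0.0280). With total counts alone the change was 0.697 (edgeR adjusted p = 0.0622). Adamts5, the chief aggrecanase of mouse cartilage, moved the other way (ENSMUSG00000022894, chromosome 16, 85653061 to 85698716, minus strand). It lay at 43.3, 76.7 and 107 CPM in vehicle and at 36.6, 24.8 and 18.1 CPM in rebamipide. Vehicle 1 and rebamipide 1 were near each other and the rest far apart (75.7 ± 31.9 against 26.5 ± 9.35 CPM, log2 fold change -1.52, SE 0.41, edgeR adjusted p = 0.0488). The call was lost with limma-voom (adjusted p = 0.0549) and in edgeR without a filter (0.0592).

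Adamts5 has Adamts1 beside it on chromosome 16, with 53060 bases between them. Adamts1, also a proteoglycanase, was not called, at 50.4, 48.8 and 62.7 CPM in vehicle and 43.4, 56.5 and 41.6 in rebamipide (log2 fold change -0.20, SE 0.21, edgeR adjusted p = 0.4998). It was called lower with total counts alone (-0.82, edgeR adjusted p = 0.0278) and with limma on log2(FPKM + 1) (-0.74, adjusted p = 0.0228). The difference between the neighbours' changes was not tested. Adamts20, the gene mutated in belted mice, which have a white band of coat, had 732, 313 and 159 reads in vehicle and 86, 32 and 32 in rebamipide. It was lower in each rebamipide library and not called by edgeR (log2 fold change -2.20, SE 0.67, edgeR adjusted p = 0.0628), while DESeq2 called it (adjusted p = 0.00582), as did edgeR with total counts alone (0.0380) and with at least 10 counts in every library (0.0408). Adamts4, Adamts8 and Adamts15 overlapped between groups.

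Adamts12, which with its relative Adamts7 carries a mucin domain and cuts cartilage oligomeric matrix protein, had the steadiest vehicle level of the called members. The gene (ENSMUSG00000047497, chromosome 15, 11064876 to 11349317, plus strand) lay at 44.8, 44.5 and 46.4 CPM in vehicle and at 27.5, 15.1 and 13.4 CPM in rebamipide. The groups were apart, with rebamipide 1 the nearest to vehicle (45.2 ± 1.06 against 18.7 ± 7.71 CPM, log2 fold change -1.28, SE 0.31, edgeR adjusted p = 0.0374). Adamts7 overlapped between groups at 92 to 239 reads. Adamts6 had 95, 115 and 66 reads in vehicle and 14, 30 and 26 in rebamipide, and was not called (log2 fold change -1.11, SE 0.49, edgeR adjusted p = 0.144). It was called lower with total counts alone (-1.77, edgeR adjusted p = 0.0321) and with limma on log2(FPKM + 1) (-0.256, adjusted p = 0.0274). Its relative Adamts10 overlapped, with 344 to 654 reads.

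**Figure D3:**
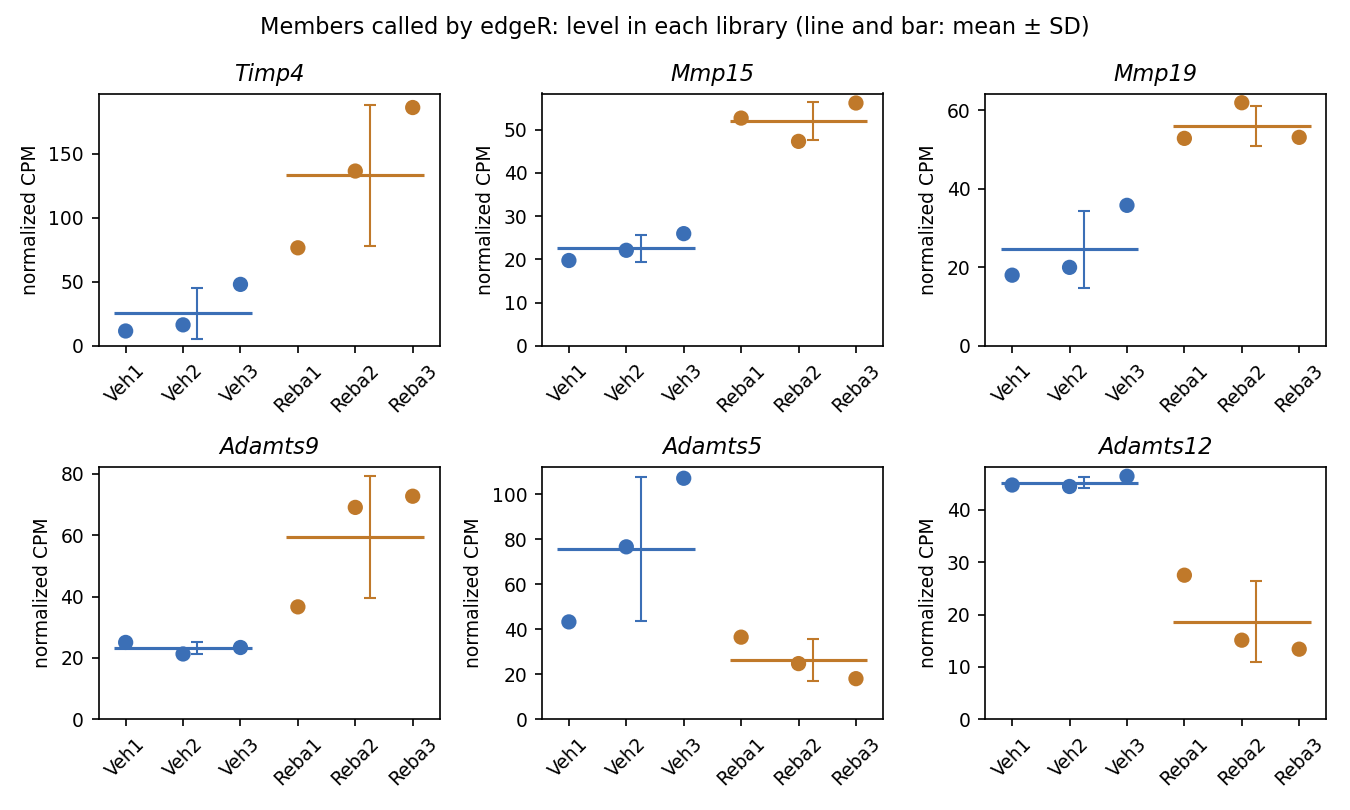
TMM-normalized CPM (y axis, from 0) of the 6 called members in each library (x axis), with blue points for vehicle, orange points for rebamipide, a line at each group mean and a bar of ± 1 SD. Points of the 2 colours do not overlap in any panel, and Mmp15 has the smallest spread beside its difference, at 22.6 ± 3.13 and 52.0 ± 4.47 CPM.

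The calls rested on 3 libraries a group and were not steady in edgeR. With vehicle 2 left out edgeR called 0 genes of the whole table (4116 at an unadjusted p under 0.05, where DESeq2 called 4776), and with rebamipide 2 left out it called 1 (4062 unadjusted, DESeq2 3450), so that 0 members were called in both cases, where 8 and 7 members had an unadjusted p under 0.05. Without rebamipide 3, the library lacking Krt14 and Krt15 reads, edgeR called Mmp15 alone among the members, and 1394 of 15327 genes in all. DESeq2 called 3897 genes in that fit. Among them were all 6 members and also Mmp16, Mmp27, Adamts18 and Adamts20, which were lower. Over the 6 fits that each left out 1 library, Timp4 was called in 2 by edgeR, Mmp15 in 4, Adamts5 in 2, and Mmp19, Adamts9 and Adamts12 in 1 each. DESeq2 called Timp4, Mmp15, Adamts9 and Adamts12 in 6 of 6 and Mmp19 and Adamts5 in 5 of 6. With all libraries DESeq2 called 4 members higher and 6 lower, beside 16.6% and 16.0% of all genes, the further lower ones being Mmp16, Adamts18, Adamts20 and Mmp27, which it called in 5, 4, 4 and 3 of the 6 fits with a library left out. With limma-voom the calls were as few as in edgeR, at 3 of 6 for Mmp15, 2 for Timp4, Mmp19, Adamts9 and Adamts12 and 1 for Adamts5. Limma-voom called 0 members without vehicle 2, rebamipide 2 or rebamipide 3. Of all genes it then called 217 of 14964, 270 of 15335 and 1178 of 15327.

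Beside the 4 members that rose, markers of several tissues were also called higher. Of 5 adipocyte markers 3 were called higher, while Lep had 2392 to 4781 reads in vehicle and 2935, 783 and 814 in rebamipide. Their summed level was 722 to 2808 CPM in vehicle and 3748 to 5056 in rebamipide. Likewise 4 of 5 brown adipocyte markers (all but Elovl3) and 2 of 4 endothelial markers were called higher, the latter with sums of 193 to 449 CPM in vehicle and 934 to 1366 in rebamipide. Smooth muscle and pericyte markers summed to 352 to 537 and 611 to 1037 CPM, with 0 of 4 called. Slow muscle markers lay at 0.941 to 5.79 CPM in vehicle and at 87.6 and 3.85 in rebamipide 2 and 3, were higher still in rebamipide 1, and had 3 of 4 called higher. The part of these tissues in the levels of Timp4, Mmp15, Mmp19 and Adamts9 was not tested.

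Several abundant members, namely Mmp2, Adamts2, Timp2, Mmp3 and Mmp14, had a like order over the libraries, with rebamipide 1 apart from the other rebamipide libraries, while Timp3, the third in mean FPKM, did not. As a percentage of the vehicle mean, Mmp2 stood at 100.4, 29.7 and 18.7 in rebamipide 1, 2 and 3, Adamts2 at 97.2, 29.3 and 18.1, Timp2 at 81.4, 26.1 and 17.3, Mmp3 at 79.2, 26.5 and 15.8, and Mmp14 at 88.9, 23.0 and 11.8. Timp4 stood at 302, 539 and 735, and the ratio of Timp3 to Mmp2 varied by 8.47 times over the 6 libraries. Over the 36 tested members, 6 lay below 50% of the vehicle mean in rebamipide 1, 17 in rebamipide 2 and 19 in rebamipide 3, beside 22.2, 28.0 and 32.3% of all genes, while 4, 4 and 5 lay above 200%, beside 12.3, 17.0 and 18.1%. With rebamipide 1 left out, edgeR called 3 members higher and 10 lower of the 38 then tested, beside 18.3% and 12.8% of all genes, and the lower ones then were Mmp2, Mmp3, Mmp14, Mmp23, Timp1, Timp2, Adamts2, Adamts5, Adamts12 and Adamts14. Summed markers of several cell types had the same order over rebamipide 1, 2 and 3: the fibroblast and basal keratinocyte markers given above, macrophage markers (311, 142 and 78.9 CPM), mast cell markers (131, 33.9 and 17.8 CPM) and fast muscle markers (24550, 5005 and 196 CPM). Their part in the members' levels was not tested.

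**Figure D4:**
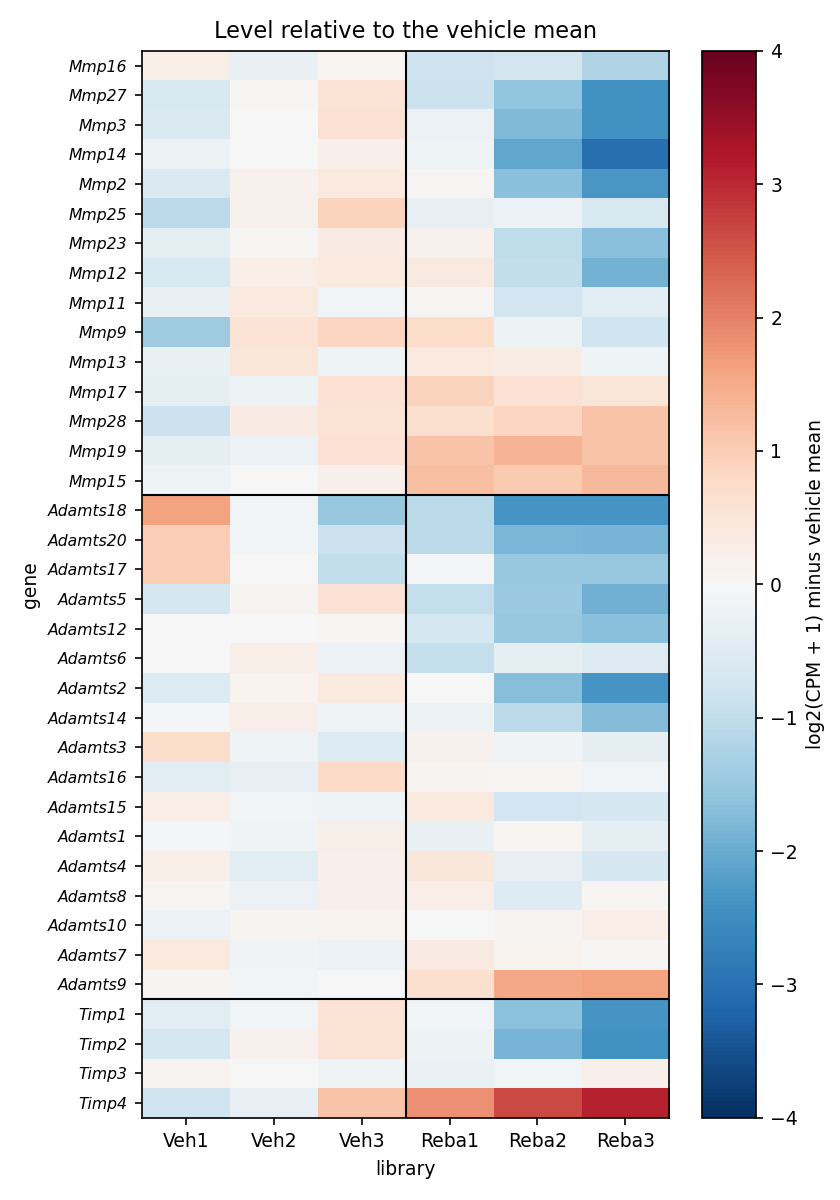
Level of each tested member (y axis) in each library (x axis) as log2(CPM + 1) minus the vehicle mean of the same quantity, red for higher and blue for lower, with families divided by horizontal lines. Mmp2, Mmp3, Mmp14, Adamts2, Timp1 and Timp2 are pale in rebamipide 1 and dark blue in rebamipide 3, while Timp4, Mmp15, Mmp19 and Adamts9 are red in all 3 rebamipide libraries.

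The closest companion of Mmp2 was Adamts2, the main enzyme that removes the amino-terminal propeptide of fibrillar procollagens. Adamts2 (ENSMUSG00000036545, chromosome 11, 50492911 to 50698400) lay at 114, 187 and 223 CPM in vehicle and 170, 51.3 and 31.7 CPM in rebamipide (log2 fold change -1.05, SE 0.65, edgeR adjusted p = 0.266). The ratio of Adamts2 to Mmp2 in FPKM was 0.330, 0.321 and 0.329 in vehicle and 0.316, 0.322 and 0.318 in rebamipide, so that its highest value was 1.04 times its lowest, while the CPM of Mmp2 itself varied by 6.80 times. Of the reads of both genes together, Adamts2 held 46.7 to 47.7% in the 6 libraries, and in rebamipide 3, the shallowest for this pair with 1776 reads, the share was 46.8% (exact 95% binomial interval 44.5 to 49.1%, counting error only). This likeness was looked up after the values had been seen and is a description over 6 libraries, across which depth and the summed cell type markers also varied, with no test.

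Ranked by the same measure, the highest over the lowest ratio to Mmp2, Adamts2 came 1st among 14874 genes, Lsp1 followed at 1.23, Timp2 was 9th at 1.33 and Mmp3 28th at 1.46. Mmp14 was farther off at 2.13, with a ratio to Mmp2 of 0.605 in vehicle 1 and 0.285 in rebamipide 3. Timp4, at 66.1, was among the least similar. Adamts14, another procollagen N-proteinase, was at 6.87, 8.73 and 6.52 CPM in vehicle and 6.22, 3.04 and 1.53 CPM in rebamipide, and did not pass the test (log2 fold change -1.03, SE 0.53, edgeR adjusted p = 0.196). Limma on log2(FPKM + 1) called it lower.

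**Figure D5:**
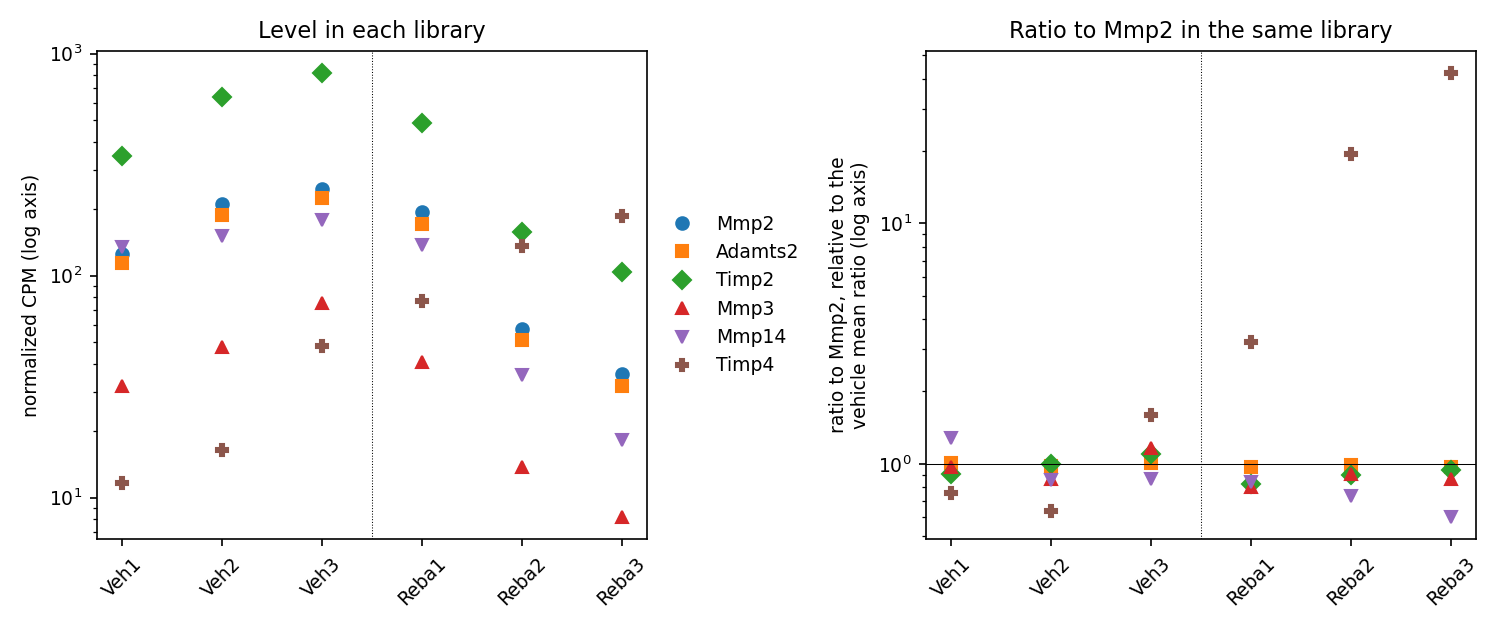
Left, TMM-normalized CPM (log axis) of Mmp2, Adamts2, Timp2, Mmp3, Mmp14 and Timp4 in each library, and right, the read ratio of each to Mmp2 divided by its mean over the vehicle libraries (log axis). Adamts2 stays close to the line at 1 in all 6 libraries while the CPM of Mmp2 varies by 6.80 times, and Timp4 departs from it most.

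A different set of members was high in vehicle 1. There, 6 members were highest and at least 3 times their count in vehicle 3, and all 6 were Adamts genes (3, 13, 17, 18, 19 and 20), chosen after their values were seen. Of these, Adamts13 and Adamts19 had too few reads to be tested. The share of all genes that met this rule was not counted. Adamts18, an orphan enzyme related to Adamts16, had 859, 220 and 51 reads in vehicle and 54, 4 and 4 in rebamipide (log2 fold change -3.43, SE 1.39, edgeR adjusted p = 0.121). Adamts17 had 342, 144 and 48 reads in vehicle and 86, 10 and 10 in rebamipide (log2 fold change -1.57, SE 1.05, edgeR adjusted p = 0.296). Over all alternatives, log2(FPKM + 1) included, the fold change ran from -5.595 to -0.737 for Adamts18 and from -3.21 to -0.442 for Adamts17. Markers of the growing hair follicle, of which 7 of 8 listed were measured, summed to 14690, 6663 and 159 CPM in vehicle 1 to 3 and to 801, 0.390 and 0 in rebamipide 1 to 3. Vehicle 1 and 2, from mice shaved in telogen like the rest, thus held abundant RNA of these genes, and the part of these cells in the Adamts levels was not tested.

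The ratio of summed proteases to summed inhibitors overlapped between the groups. Summed FPKM over the 23 Mmp genes was 177 ± 50.1 in vehicle and 78.3 ± 53.5 in rebamipide (SD, n = 3), over the 19 Adamts genes 63.4 ± 7.93 and 27.2 ± 12.1, and over the 4 Timp genes 235 ± 74.4 and 95.3 ± 50.7. The Mmp sums overlapped between groups, while the Adamts and Timp sums did not, and after division by the TMM factors all 3 overlapped. The ratio of the Mmp to the Timp sum was 0.797, 0.739 and 0.739 in vehicle and 0.908, 0.802 and 0.640 in rebamipide, and that of all proteases to the Timp sum was 1.04 ± 0.0999 and 1.08 ± 0.141. Rebamipide held both the highest and the lowest Mmp value. No test was made on these sums.

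These ratios leaned on single abundant genes. Without Mmp2, Adamts2 and Timp2, the most abundant member of each family, the Mmp to Timp ratio was 2.30 ± 0.469 in vehicle and 1.39 ± 0.814 in rebamipide, and the Adamts to Timp ratio was 0.883 ± 0.0451 and 0.498 ± 0.151, the latter with no overlap. The makeup of the protease pool also differed. Mmp15 and Mmp19 made up 2.58 to 3.74% and 3.86 to 5.44% of the Mmp sum in vehicle, and 6.48 to 18.5% and 9.93 to 26.8% in rebamipide. Mmp14 made up 16.0 to 23.0% of the sum in vehicle and 15.3, 8.43 and 5.43% in rebamipide. Adamts9 made up 2.62 to 3.78% of the Adamts sum in vehicle and 5.53, 15.3 and 19.9% in rebamipide.

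Other genes of the pathway were taken from a list of 48 activators, inhibitors, receptors and related proteases, of which 41 were tested. Of these, 4 were higher and 3 lower (9.76% and 7.32%, beside 14.1% and 6.51% of all genes), and the median fitted change was -0.67 on the log2 scale (-0.175 over all genes). The higher genes were Hyal1, a hyaluronidase (log2 fold change 1.83, SE 0.29), Adam12, a membrane-bound metalloprotease (2.68, SE 0.53), Bsg, the surface protein basigin known as an inducer of MMP production (0.91, SE 0.21), and Furin, a convertase that activates membrane-type MMP precursors (0.71, SE 0.18), the last named after its value was seen. Their edgeR adjusted p-values were 0.0129, 0.0215, 0.0313 and 0.0412. Adam12 lay at 25.3, 18.6 and 11.3 CPM in vehicle and at 50.4, 154 and 149 CPM in rebamipide.

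The lower genes were Adam10, a sheddase of many surface proteins (log2 fold change -1.20, SE 0.23), Fap, a serine protease of activated fibroblasts (-1.82, SE 0.38), and Thbs1, a matricellular protein that binds MMPs (-1.79, SE 0.39). Their edgeR adjusted p-values were 0.0211, 0.0250 and 0.0281. Adam10 lay at 125, 111 and 100.3 CPM in vehicle and 35.6, 56.0 and 54.7 CPM in rebamipide, so that its fall included rebamipide 1. The collagen chaperone Serpinh1, at a mean of 203.5 FPKM one of the most abundant of the list beside Bsg at 209, was not called (0.25, SE 0.29, edgeR adjusted p = 0.528).

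Among 28 textbook substrates, 27 were tested, 3 were higher and 2 lower (11.1% and 7.41%, beside 14.1% and 6.51% of all genes), and the median fitted change was -0.94 on the log2 scale (-0.175 over all genes). The higher genes all encode basement membrane components, namely Col4a2 (log2 fold change 1.21, SE 0.21), Col4a1 (0.995, SE 0.23) and the heparan sulfate proteoglycan Hspg2 (0.91, SE 0.23), with edgeR adjusted p-values of 0.0156, 0.0321 and 0.0385. Col4a1 lay at 651, 538 and 646 CPM in vehicle and 1255, 1177 and 1227 CPM in rebamipide. The lower genes were Postn, a matricellular protein of the dermis (-1.83, SE 0.25, edgeR adjusted p = 0.0101), and Lamb3, a laminin chain of the epidermal basement membrane (-1.29, SE 0.33, edgeR adjusted p = 0.0417). The fibrillar collagens Col1a1 and Col3a1, the most abundant of the list at 439 and 426 FPKM, were not called (-1.20, SE 0.998, edgeR adjusted p = 0.395, and -0.82, SE 0.76, edgeR adjusted p = 0.441). Col1a1 lay at 3467, 3218 and 3908 CPM in vehicle and at 3849, 527 and 237 CPM in rebamipide. As for Mmp2, rebamipide 1 was high and rebamipide 2 and 3 were low, but the ratio of Col1a1 to Mmp2 varied by 4.22 times over the libraries.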

How the data were processed

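Full-thickness dorsal skin of 3 vehicle-treated and 3 rebamipide-treated mice was sequenced. Per the submitters' processing notes, fastp 0.22.0, HISAT2 2.1.0 and HTSeq 0.9.1 were used with GRCm39. The authors deposited read counts per gene and FPKM. The deposited FPKM values equalled count over gene length and library total, so they carry no correction for composition. Counts were tested with edgeR 4.0.16 (R 4.3.3; TMM factors, filterByExpr, quasi-likelihood test of group without covariates), and a gene was called at a Benjamini-Hochberg adjusted p under 0.05 over 14875 genes. The SE of a log2 fold change was derived from the test, as its size divided by the square root of the F statistic. CPM values use TMM-normalized library sizes, and FPKM was used to compare levels between genes. Tables and figures were made with Python 3.11.15, pandas 2.3.3 and matplotlib 3.10.9, and promoters were searched in RefSeq sequences on GRCm38.p6.

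Named members were all Timp genes, the called members, the 3 Mmp and 3 Adamts of highest FPKM and of largest log2 fold change in size, and members without overlap between groups. From the pathway and substrate lists the 3 called genes of smallest p in each direction and the 2 of highest FPKM were named. The members and lists were chosen with earlier results of these data known. Alternatives were DESeq2 1.42.0, limma-voom (limma 3.58.1), relative log expression (RLE) factors, total counts, no filter on low counts, at least 10 counts in every library, a replicate block, limma on log2(FPKM + 1), the limits of the study, and leaving out each library in turn. DESeq2 and limma-voom with a library left out, and the substrate list by DESeq2 and with a library left out, were added after seeing the data. The fitting code was tested on simulated data with the same spread for every gene and no shift in composition, unlike these libraries. It was thus a check of the code and not of the calls. With 3 libraries a group, an exact permutation test of 1 value cannot go below p = 0.1, and none was used. No pair of libraries within a group differed by as little as sampling noise (chi-square divided by its degrees of freedom, 79.1 to 714). A count of 0 allows up to 3 reads, or 0.0601 to 0.117 CPM, for counting error only.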

Additional observations from a re-analysis of the deposited data

How the results depend on the processing

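No member named with a fold change turned sign under any alternative except Timp3, whose log2 fold change without rebamipide 1 was 0.044 by edgeR, 0.056 by DESeq2 and 0.039 by limma-voom, within a range of -0.188 to 0.056 over the fits with a library left out and of -0.689 to 0.056 over all alternatives, of which total counts and log2(FPKM + 1) called it lower. Counts of calls moved more, and for the members and all genes the ranges with a library left out cover edgeR, DESeq2 and limma-voom. Mmp genes called higher (2) were 0 with total counts and with log2(FPKM + 1), 1 without a filter, and 0 to 3 with a library left out, while Mmp genes called lower (0) were 2 by DESeq2, 1 with total counts, 4 with log2(FPKM + 1), 2 with the limits of the study and 0 to 7 with a library left out. Adamts genes called higher (1) were 0 with total counts and with log2(FPKM + 1) and 0 to 2 with a library left out, and those called lower (2) were 4 by DESeq2, 1 by limma-voom, 5 with total counts, 1 without a filter, 5 with log2(FPKM + 1), 4 with the limits of the study and 0 to 9 with a library left out. Timp genes called higher (1) were 0 with total counts, 0 without a filter and 0 to 1 with a library left out, and those called lower (0) were 1 with total counts, 1 with log2(FPKM + 1) and 0 to 2 with a library left out. Over all genes, 2093 calls higher became 1258 with total counts and 0 to 3628 with a library left out, and 968 calls lower became 2572 by DESeq2, 3752 with total counts, 1512 with at least 10 counts in every library, 4809 with log2(FPKM + 1), 2161 with the limits of the study and 0 to 4251 with a library left out. By DESeq2, 7 genes of the pathway list and 6 substrates were lower, and with a library left out the pathway list gave 0 to 4 higher and 0 to 15 lower and the substrates 0 to 3 higher and 0 to 13 lower. The largest counts of lower members came without rebamipide 1, and edgeR called 0 members in any family without vehicle 2 or rebamipide 2. The mean ratios without the most abundant member of each family were 2.30 and 1.39 (Mmp to Timp) and 0.883 and 0.498 (Adamts to Timp), and the vehicle sum of Adamts FPKM was 51.2 after division by the TMM factor. The cause of these changes was not tested.

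Same-numbered libraries did not deviate together (correlations of -0.09, -0.02 and -0.06 for numbers 1, 2 and 3), and no library correlated best with its own number. With a replicate block 1432 genes were called higher and 855 lower, and of the members 2 were higher (Timp4 and Mmp15, so 1 Mmp and 0 Adamts) and 2 lower (Adamts20 and Adamts18), while Adamts5 was not called (adjusted p = 0.138). With 3 libraries a group and rebamipide 1 unlike the other two, a difference that missed the threshold may still be present.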
